A study of Mus musculus with 6 samples.

Results

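RGS proteins, the regulators of G protein signalling, are GTPase-activating proteins that speed the return of active G alpha subunits to their resting state and so shorten the signal from a G protein-coupled receptor. The GnRH receptor of gonadotropes couples mainly to Gq and G11 proteins, on which several RGS proteins can act. Mammalian RGS proteins fall into subfamilies by sequence, of which R4 members are mostly small, R12 members include multidomain scaffolds, RZ members have a cysteine-rich stretch and R7 members work as partners of the G protein subunit Gbeta5. The genes followed here belong to the R4, R12 and RZ subfamilies, namely *Rgs2*, *Rgs3*, *Rgs4* and *Rgs16* (R4), *Rgs10*, *Rgs12* and *Rgs14* (R12), and *Rgs17*, *Rgs19* and *Rgs20* (RZ). The 10 genes were taken by gene symbol from the 47069 genes of the count table, which held 21 genes with an RGS symbol of the family, and all 10 had at least 1 count in some library.

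The libraries were made from LβT2, an immortalized mouse gonadotrope line, at passage 14. Every culture received 2 nM GnRH for 40 min after 2 days of growth, so that the levels below are those of stimulated cells and no untreated cells were part of the series. Cells were trypsinized and pelleted, and then either lysed at once (fresh, 3 libraries) or kept in the RNA-Best preservative, a proprietary reagent, for 4 days or more at 4°C and pelleted again before lysis (RNA-Best, 3 libraries). Storage, the added pelleting and any other difference in handling between the groups cannot be told apart. Whether a group's 3 libraries stem from different cultures is not given in the sources used here, and p-values therefore measure the spread between libraries, which may be technical.

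The polyA RNA libraries held between 4909418 and 47438746 counts, and each fresh library was deeper than each RNA-Best library. Pairs of libraries differed by more than counting noise within groups (chi-square of 1.08 to 1.95 per gene) and by more between groups (8.42 to 14.4 per gene). Of 8 gonadotrope markers 7 had counts, among them *Cga*, the shared gonadotropin subunit, at 1813 ± 19.5 CPM (counts scaled by the total of the library, SD, n = 3) in fresh and 1426 ± 20.2 CPM in RNA-Best libraries, while *Fshb* was at 0 counts in all 6. Of the 7 markers tested, 1 was higher in RNA-Best, *Gnrhr* (log2 fold change of 0.43, adjusted p = 5.66e-11, edgeR), and 3 were lower, against 50.8% called over all genes. An offset for exonic length gave 2 higher and 3 lower (38.3% of all genes called), and one for GC content 3 higher and 2 lower (48.0% called). *Prl*, *Pou1f1*, *Pax7*, *Ptprc* and *Sox2*, markers of other pituitary or non-endocrine cells, were at 0 counts. *Tshb*, also such a marker, was at 0.91 ± 0.137 CPM (SD, n = 3) in fresh and 1.64 ± 0.563 CPM in RNA-Best libraries (log2 fold change of 0.91, adjusted p = 0.0035, edgeR). Without RNA-Best replicate 1 *Tshb* was not called, nor was it at an unadjusted p under 0.05 (edgeR). *Ghrhr* had 27 counts over the fresh and 1 over the RNA-Best libraries, did not pass the filter on low counts, and was called lower with no filter (adjusted p = 0.0389, edgeR). The endothelial marker *Pecam1* was present at 42.4 ± 0.633 CPM (SD, n = 3) in fresh and 38.9 ± 1.63 CPM in RNA-Best libraries (-0.15, adjusted p = 0.015, edgeR). *Pecam1* was not called by DESeq2, without RNA-Best replicate 1 or without RNA-Best replicate 3 (each at an unadjusted p under 0.05, DESeq2 and edgeR). Nor was it called with libraries thinned to the smallest total or against a 1.2-fold change. The part of these other cell type markers in the results below was not tested.

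Promoter windows were looked up for the 10 genes, since the family's early-response members are known to be controlled at transcription. The RefSeq table of GRCm38.p6 gave 12 windows for 8 of them, each of 300 bases with 250 before and 50 after a transcript start, and had no entry for *Rgs14* or *Rgs20*. Those of *Rgs2*, *Rgs4* and *Rgs10* are printed because these are an abundant and a scarce R4 member and an R12 member, each with 1 annotated window. *Rgs2* lies at chr1:144004100-144004399, *Rgs4* at chr1:169747593-169747892 and *Rgs10* at chr7:128418123-128418422, all on the minus strand, and each is shown 5′ to 3′ along the gene. Capitals mark the core TGACG of a cAMP response element, the Egr site GCGNGGGCG and the TATA box TATAAA on either strand, and the GC box GGGCGG is not marked.
Rgs2: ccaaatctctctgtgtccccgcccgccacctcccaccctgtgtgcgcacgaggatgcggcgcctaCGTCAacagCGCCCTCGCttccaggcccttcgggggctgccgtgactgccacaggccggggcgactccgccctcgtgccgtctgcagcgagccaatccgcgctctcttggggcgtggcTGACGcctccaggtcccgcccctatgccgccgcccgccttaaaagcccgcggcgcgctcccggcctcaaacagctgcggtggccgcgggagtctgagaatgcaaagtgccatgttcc
Rgs4: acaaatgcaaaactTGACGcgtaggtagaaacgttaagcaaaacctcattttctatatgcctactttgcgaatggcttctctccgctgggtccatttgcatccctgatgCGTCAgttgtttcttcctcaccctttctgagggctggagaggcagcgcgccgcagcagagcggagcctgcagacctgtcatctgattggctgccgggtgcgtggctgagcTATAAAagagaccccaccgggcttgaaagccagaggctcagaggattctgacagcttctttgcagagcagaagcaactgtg
Rgs10: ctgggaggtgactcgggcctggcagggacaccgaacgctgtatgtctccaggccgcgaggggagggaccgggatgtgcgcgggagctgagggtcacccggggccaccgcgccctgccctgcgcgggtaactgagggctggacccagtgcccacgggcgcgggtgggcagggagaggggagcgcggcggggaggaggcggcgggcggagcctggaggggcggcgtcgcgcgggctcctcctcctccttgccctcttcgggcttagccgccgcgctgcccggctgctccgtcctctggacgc

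The *Rgs2* window had a GC content of 70.0%, against a median of 52.7% over 32851 windows of mouse genes, and held 33 CpG dinucleotides against a median of 7. Counted from the start, its TGACG cores began at -185 and -67 and its Egr site at -176, and 4 GC boxes were present as well. The *Rgs4* window also had 2 TGACG cores, at -236 and -141, and a TATA box at -31. In *Rgs10*, with a GC content of 76.0% and 34 CpG dinucleotides, 2 GC boxes were the matches found. The core TGACG was in 3 of the 12 windows and in 20.8% of all windows, and the Egr site in 2 of 12 and 5.55%. The GC box was in 9 of 12 and 35.7%, and TATAAA in 3 of 12 (both windows of *Rgs3* and that of *Rgs4*) and 13.6%. TGANTCA, the AP-1 site, was in 2 of 12 and 7.81%. The full element TGACGTCA, the CArG box of serum response elements and the SF1 element AAGGTCA were in none of the 12, and in 1.79%, 1.63% and 4.72% of all windows. Both strands were searched, TGACGTCA contains TGACG, and the Egr site can overlap a GC box, as in the second window of *Rgs19*. Some genes have more than 1 window, and windows 1 and 2 of *Rgs19* overlap and share a GC box. The 12 windows are therefore not all separate promoters. These are matches of letters, with no measurement of binding.

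*Rgs2* was also an amplicon of the study's qPCR assays, and its primers place that assay on the gene. Both primers match a single annotated transcript, the protein-coding Rgs2-202, in the untranslated part of its exon 5, and enclose 68 bases. The forward primer covers chr1:143999584-143999602 and the reverse primer chr1:143999535-143999554 of GRCm38, on a gene read from the minus strand.
Forward primer: tacacaatcccctgcacca
Reverse primer: ggctgagggacatagcatct

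Per length, *Rgs19* was the most abundant of the 10 genes, followed by *Rgs2*, *Rgs10*, *Rgs3*, *Rgs12*, *Rgs4*, *Rgs14* and *Rgs20*, with *Rgs16* and *Rgs17* near 0. The scale is RPKM, the CPM of a gene divided by the kilobases of its merged exons. *Rgs19*, an RZ member that acts on Gi-type subunits, stood at 24.2 ± 0.327 RPKM (SD, n = 3) in fresh and 24.0 ± 0.481 RPKM in RNA-Best libraries. *Rgs2* stood at 14.2 ± 0.246 RPKM in fresh and 12.3 ± 1.1 RPKM in RNA-Best libraries. *Rgs10* followed at 9.94 ± 0.405 RPKM in fresh and 8.03 ± 1.1 RPKM in RNA-Best libraries. The steps between these leading genes were wider than the range of the libraries in either group, and so were those down to *Rgs3* at 4.56 ± 0.0914 RPKM and *Rgs12* at 3.45 ± 0.0803 RPKM in fresh libraries. *Rgs4* was lower, at 1.73 ± 0.0699 RPKM in fresh libraries, and *Rgs14* reached 0.625 ± 0.0429 RPKM and *Rgs20* 0.234 ± 0.0507 RPKM. In RNA-Best libraries *Rgs14* (0.350 to 0.511 RPKM) and *Rgs20* (0.323 to 0.384 RPKM) overlapped and could not be ordered. With the median length of the annotated transcripts in place of merged exons the order of the first genes changed. *Rgs2* then led at 73.1 RPKM in fresh libraries ahead of *Rgs19* at 55.4, *Rgs12* at 36.8, *Rgs10* at 36.7 and *Rgs3* at 23.8. *Rgs12* and *Rgs10* could not be ordered, as *Rgs10* was the higher in fresh replicate 3 (38.3 against 37.7 RPKM).

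**Figure D1:**
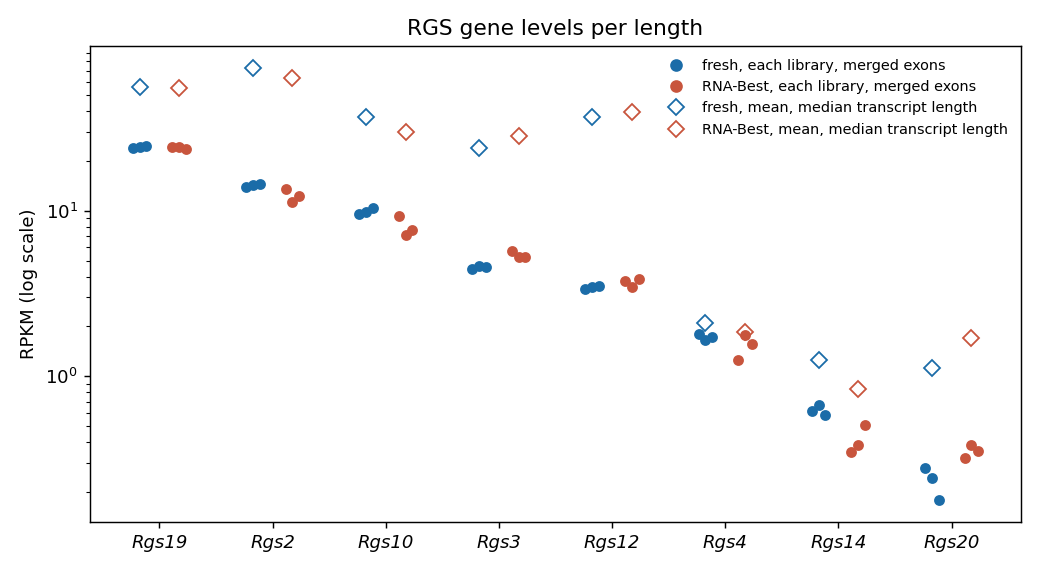
Level per length of the 8 RGS genes with enough counts to test, in RPKM on a log axis. Filled points are the 3 libraries of each group with merged exons as the length, and open diamonds are group means with the median transcript length. From left to right the filled points fall from about 24.2 RPKM for *Rgs19* to 0.234 RPKM for *Rgs20* in fresh libraries, and the diamonds put *Rgs2* above *Rgs19*.

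The comparison of the design asks whether preserved cells give the same transcript levels as fresh cells. Of the 10 genes 8 passed the filter on low counts, and 4 of these had an adjusted p under 0.05 (edgeR's quasi-likelihood test, Benjamini-Hochberg adjustment over 14736 genes). Over all tested genes 50.8% were called, so the members' count was near the background. *Rgs3* was higher in RNA-Best, where 26.0% of all genes were called higher. *Rgs2*, *Rgs10* and *Rgs14* were lower, where 24.8% of all genes were called lower. The median log2 fold change of the 8 genes was -0.11, and that of all tested genes -0.01. Groups did not overlap in 5 of the 8 genes, against 57.5% of all tested genes. None of the 8 passed a test against a 1.2-fold change (edgeR's glmTreat, 1 of 8 at an unadjusted p under 0.05), which 11.5% of all genes passed.

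**Figure D2:**
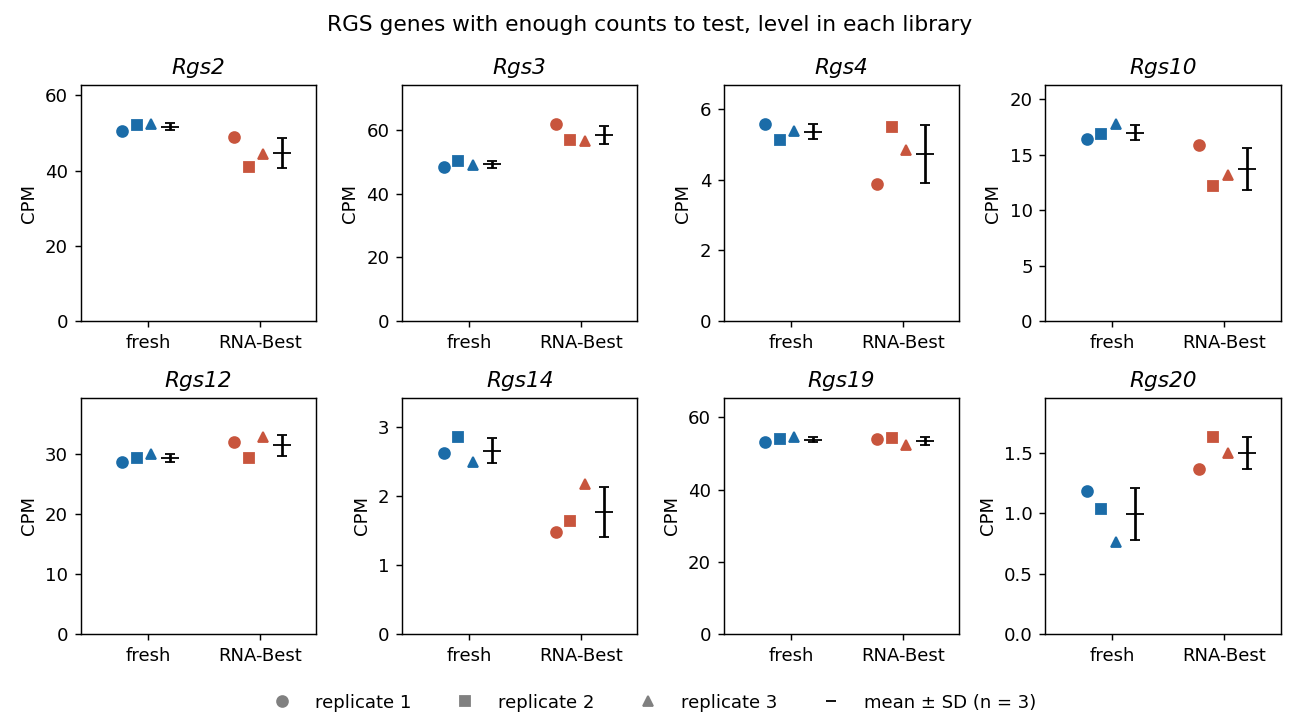
Level of the 8 tested RGS genes in CPM in each library, with the axis starting at 0. Symbols mark the replicate number, and black bars give the mean and SD of 3 libraries. The groups are apart in *Rgs2*, *Rgs3*, *Rgs10*, *Rgs14* and *Rgs20* and overlap in *Rgs4*, *Rgs12* and *Rgs19*.

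*Rgs2* encodes a small R4 protein that prefers Gq over Gi subunits. It was counted at 50.6, 52.0 and 52.3 CPM in fresh libraries 1 to 3 (2052, 2467 and 757 counts). In RNA-Best libraries 1 to 3 it was at 48.9, 40.9 and 44.4 CPM (429, 201 and 533 counts). Every RNA-Best library was below every fresh library, and the RNA-Best libraries lay farther apart from each other (44.8 ± 3.99 against 51.6 ± 0.891 CPM, SD, n = 3). The RNA-Best libraries also held fewer *Rgs2* counts, and the part of counting error in this spread was not tested. The log2 fold change, RNA-Best over fresh, was -0.20 (SE 0.05, adjusted p = 0.00123, edgeR), with a 95% interval of the log2 fold change from -0.31 to -0.10. With each library thinned to the total of the smallest it was -0.17 and did not pass (adjusted p = 0.0685, edgeR).

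*Rgs3*, whose product lowers GnRH-stimulated inositol phosphate formation when it is overexpressed, moved the other way. Its levels were 48.3, 50.3 and 49.2 CPM in fresh and 61.9, 57.0 and 56.5 CPM in RNA-Best libraries. The groups did not overlap, and RNA-Best replicate 1 was highest. The log2 fold change was 0.23 (SE 0.05, adjusted p = 8.6e-05, edgeR), the smallest adjusted p among the 10 genes. *Rgs3* has 10801 exonic bases, the longest of the 10, and 4 libraries listed parts of counts for it, so that some of its reads were divided between genes or places. With an offset for exonic length its log2 fold change was -0.02 (adjusted p = 0.726, edgeR).

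The ratio of *Rgs2* and *Rgs3* within a library needs no scaling of library sizes, but it keeps any trend with length, and the genes have 3627 and 10801 exonic bases. Both log2 fold changes were below 0 with the length offset, at -0.15 and -0.02. The ratio of *Rgs3* to *Rgs2* CPM lay between 0.940 and 0.967 in fresh libraries and between 1.27 and 1.39 in RNA-Best libraries. *Rgs2* was the more counted of the pair in each fresh library and *Rgs3* in each RNA-Best library. The ratio follows from the same counts as the 2 tests above and is given without a test of its own.

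*Rgs4*, an R4 protein with Gi and Gq subunits as substrates and a known target of the N-degron pathway of protein destruction, was scarcer. Its levels were 5.58, 5.14 and 5.39 CPM in fresh libraries (226, 244 and 78 counts) and 3.88, 5.50 and 4.83 CPM in RNA-Best libraries (34, 27 and 58 counts). RNA-Best replicate 2 lay within the fresh range, so the groups overlapped. The log2 fold change was -0.22, with a 95% interval from -0.50 to 0.06 (adjusted p = 0.194, edgeR). Over 17 alternatives it ran from -0.51 after thinning to -0.10 without RNA-Best replicate 1, and 0 of them called it. *Rgs16*, also an N-degron target, had 0, 3 and 1 counts in fresh and 0, 0 and 2 counts in RNA-Best libraries and did not pass the filter. With no filter it was not called (adjusted p = 0.724, edgeR).

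In the R12 subfamily, *Rgs10*, one of the smallest RGS proteins and a regulator of Gi-type subunits, was lower in RNA-Best. It had 16.4, 16.9 and 17.8 CPM in fresh and 15.8, 12.2 and 13.2 CPM in RNA-Best libraries. The groups did not overlap, although RNA-Best replicate 1 came close to the lowest fresh library. The log2 fold change was -0.29 (SE 0.09, adjusted p = 0.00439, edgeR). Without RNA-Best replicate 3 it was -0.23 (adjusted p = 0.0955, edgeR), with the length offset -0.13 (adjusted p = 0.25, edgeR) and after thinning -0.23 (adjusted p = 0.206, edgeR). *Rgs10* has the shortest exonic length of the 10 genes, 1711 bases.

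*Rgs14*, a scaffold that binds Gi subunits through a GoLoco motif and Ras-type GTPases through further domains, had the lowest log2 fold change of the 8. Its levels were 2.62, 2.85 and 2.49 CPM in fresh libraries (106, 135 and 36 counts) and 1.48, 1.63 and 2.17 CPM in RNA-Best libraries (13, 8 and 26 counts). All RNA-Best libraries were lower, on few counts. The log2 fold change was -0.58 (SE 0.20, adjusted p = 0.0182, edgeR), and -0.56 with the length offset (adjusted p = 0.0276, edgeR). The call was lost in 5 of 17 alternatives. These were the Wald test of DESeq2 (-0.57, adjusted p = 0.118), thinning (-0.42, adjusted p = 0.336, edgeR), glmTreat (adjusted p = 0.163, edgeR) and the fits without fresh replicate 2 (-0.51, adjusted p = 0.0604, edgeR) and without RNA-Best replicate 1 (-0.44, adjusted p = 0.15, edgeR).

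*Rgs12*, the large relative of *Rgs14* with an added PDZ domain, had 28.6, 29.2 and 30.0 CPM in fresh and 32.0, 29.3 and 32.8 CPM in RNA-Best libraries. RNA-Best replicate 2 fell inside the fresh range. The log2 fold change was 0.11, with a 95% interval from -0.01 to 0.23 (adjusted p = 0.109, edgeR), and 0.18 with a GC offset (adjusted p = 0.0113, edgeR). Its sign turned with the length offset (-0.07), with the replicate block and length offset (-0.09) and after thinning (-0.09), none of which passed. The antisense gene *Gm43791* shares 467 of its exonic bases, and since no source used here states that the counting used strand, reads of the pair cannot be told apart.

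Among the RZ genes, *Rgs19* gave nearly equal levels in both groups, 53.1, 54.0 and 54.5 CPM in fresh and 54.0, 54.2 and 52.3 CPM in RNA-Best libraries. The ranges overlapped, and the 95% interval of the log2 fold change ran from -0.12 to 0.07 around -0.03 (adjusted p = 0.657, edgeR). With the length offset the value was 0.11 (adjusted p = 0.052, edgeR). *Rgs20*, a regulator with a preference for Gz, had 1.18, 1.03 and 0.760 CPM in fresh (48, 49 and 11 counts) and 1.37, 1.63 and 1.5 CPM in RNA-Best libraries (12, 8 and 18 counts). No RNA-Best library was below a fresh library, but at these counts the log2 fold change of 0.47 had a 95% interval from -0.04 to 0.99 (adjusted p = 0.147, edgeR). It shares 127 exonic bases with *Atp6v1h* and 125 with *Gm17101* on the opposite strand. *Rgs17* had 1 count in fresh replicate 2 and 0 in the other libraries and was not called with no filter (adjusted p = 0.724, edgeR). At a fixed limit of 3 counts, its listing at 0 leaves room for 0.0740 CPM in fresh replicate 1 and 0.611 CPM in RNA-Best replicate 2. This covers counting error alone, and the 95% interval of a count of 0 reaches higher, to 3.689 counts.

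Across all tested genes the log2 fold change rose with exonic length, with a median of -0.22 below 1 kb and of 0.33 above 10 kb, and the RGS genes differ in length. *Rgs10*, at -0.29, lay among genes of 1 to 2 kb with a median of -0.18. *Rgs2*, at -0.20, lay among genes of 2 to 4 kb with a median of -0.10 and quartiles of -0.20 and 0.05. *Rgs3*, at 0.23, lay among genes over 10 kb, below their median of 0.33. *Rgs14* and *Rgs20* have the same exonic length, 4239 bases, in a class with quartiles of -0.10 and 0.17, and both lay outside these quartiles, on opposite sides. With the length offset 2 of the 8 genes passed, *Rgs2* (-0.15, adjusted p = 0.0174, edgeR) and *Rgs14*, both lower in RNA-Best, where 38.3% of all genes passed.

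**Figure D3:**
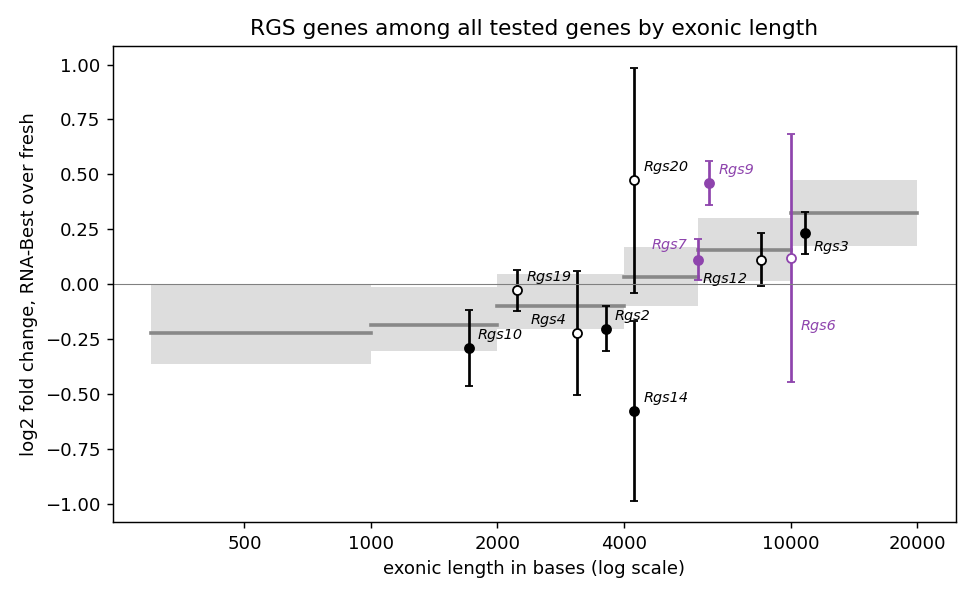
Log2 fold change, RNA-Best over fresh, against exonic length on a log axis. Black points are the tested RGS genes followed here and purple points *Rgs6*, *Rgs7* and *Rgs9*, with 95% intervals, filled where the adjusted p was under 0.05. Grey lines and boxes are the median and quartiles of all tested genes in 6 length classes, the outer classes drawn to the ends of the boxes, and the medians rise from -0.22 to 0.33.

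In sum over the 10 genes the groups were level, at 210 ± 3.24 CPM (SD, n = 3) in fresh and 210 ± 8.64 CPM in RNA-Best libraries. Shares of the summed RPKM of the 10 genes, which is another sum than that of CPM, shifted by small amounts. They went from 24.2% to 22.1% for *Rgs2* and from 7.74% to 9.70% for *Rgs3*. For *Rgs10* the share went from 16.9% to 14.4%, and for *Rgs19* from 41.0% to 43.0%. The 21 genes of the family together had 307 ± 2.51 CPM in fresh and 328 ± 8.03 CPM in RNA-Best libraries. The 10 genes made up 68.5% of the family's CPM in the fresh and 63.9% in the RNA-Best group.

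The rest of the family's counts came mostly from *Rgs7* and *Rgs9*, R7 members best known from neurons and photoreceptors. Of the 11 other RGS genes 8 had a count and 3 were tested, and 2 of these were higher in RNA-Best and 0 lower, where 26.0% of all genes were higher and 24.8% lower. *Rgs9* had 38.6, 40.8 and 40.1 CPM in fresh and 56.7, 56.8 and 53.7 CPM in RNA-Best libraries, with no overlap. Its log2 fold change was 0.46 (adjusted p = 6.89e-10, edgeR), and 0.36 with the length offset (adjusted p = 2.4e-07, edgeR). *Rgs7* rose from 55.3 ± 1.58 to 60.9 ± 2.19 CPM (SD, n = 3), a log2 fold change of 0.11 (adjusted p = 0.0391, edgeR), but it passed in 5 of 17 alternatives and not with the length offset (adjusted p = 0.664, edgeR), and its sign turned with the GC offset (-0.06, adjusted p = 0.276, edgeR). Leaving out fresh replicate 2 or 3 or any RNA-Best library also took *Rgs7* past 0.05, with adjusted p of 0.0554 to 0.154 (edgeR). *Rgs6* was at 1.07 ± 0.342 CPM (SD, n = 3) in fresh and 1.23 ± 0.451 CPM in RNA-Best libraries, with a log2 fold change of 0.12 (adjusted p = 0.753, edgeR).

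**Figure D4:**
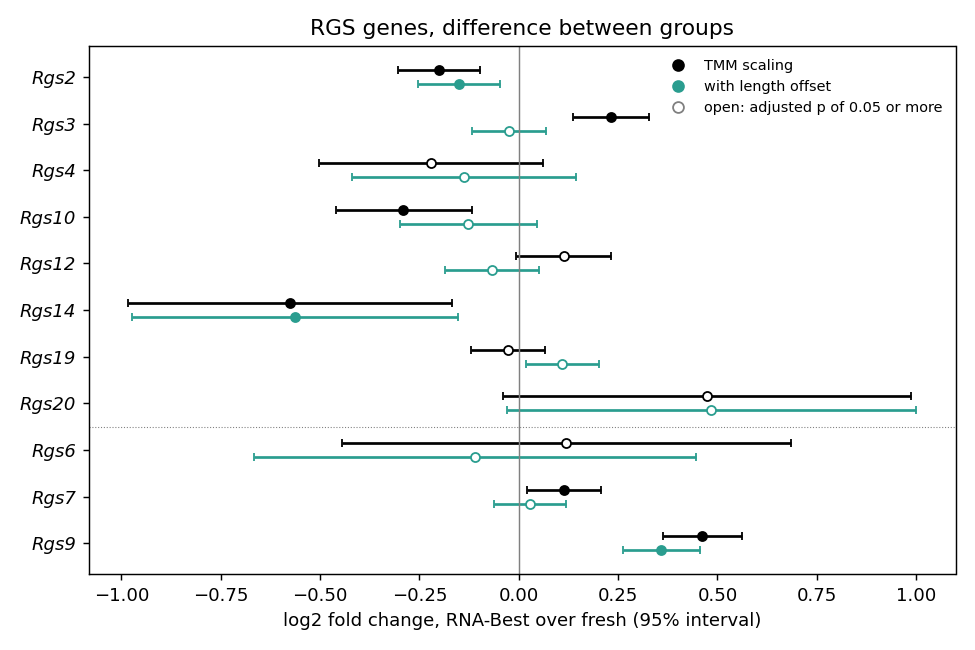
Log2 fold change, RNA-Best over fresh, with its 95% interval for the 8 tested RGS genes and, under the dotted line, for *Rgs6*, *Rgs7* and *Rgs9*. Black is the test with TMM scaling and green the test with an offset for exonic length, and open points had an adjusted p of 0.05 or more. With the offset *Rgs3* moves from 0.23 to -0.02, *Rgs9* from 0.46 to 0.36 and *Rgs14* from -0.58 to -0.56.

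Of 20 partners of RGS proteins and other proteins with an RGS domain, 18 were tested, 8 were higher and 2 lower in RNA-Best, and their median log2 fold change was 0.12, where 26.0% of all tested genes were higher and 24.8% lower. The higher ones included *Arhgef12* (0.49, adjusted p = 3.24e-14, edgeR) and *Arhgef11* (0.40, adjusted p = 1.36e-07, edgeR), both with an RGS-like domain. They also included *Rgs7bp*, the membrane anchor of R7 proteins (0.50, adjusted p = 1.51e-06, edgeR), and the receptor kinase *Grk3* (0.43, adjusted p = 2.34e-06, edgeR). *Axin1*, the scaffold of beta-catenin destruction, and *Grk6* did not pass, at -0.03 and -0.11. Under the length offset 7 of the 18 passed, 5 higher and 2 lower, against 38.3% of all genes, and *Arhgef12* was 0.14, *Arhgef11* 0.23, *Rgs7bp* 0.37 and *Grk3* 0.24, each still past the threshold. With the GC offset 8 were higher and 0 lower (0 lower also at an unadjusted p under 0.05, edgeR), where 23.9% of all genes were higher and 24.1% lower. *Arhgef12* shares 1209 exonic bases and *Arhgef11* 991 with a gene on the opposite strand, and all 6 libraries listed parts of counts for *Arhgef12*, so their values are uncertain.

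RGS proteins have G alpha subunits as substrates, each only some of them. The list here was not limited to substrates of the 10 genes. Of 16 G alpha genes 10 were tested, 4 were higher, 3 lower and 3 not called, against 50.8% called over all genes, and their median log2 fold change was 0.10. With the length offset 4 of the 10 were called (38.3% of all genes), and with the GC offset 4 (48.0% of all genes), which include *Gnai3*, not called in the main test. *Gnaq* rose from 133 ± 3.02 to 157 ± 8.06 CPM (SD, n = 3; log2 fold change of 0.22, adjusted p = 2.49e-06, edgeR), and *Gna11*, the other main Gq-class gene, fell from 100.5 ± 0.892 to 89.2 ± 1.55 CPM (-0.18, adjusted p = 0.000128, edgeR). *Gnao1* (0.46, adjusted p = 2e-08, edgeR) and *Gnas* (0.44, adjusted p = 2.61e-05, edgeR) were higher, and the exons of *Gnas* overlap *Nespas* and *Gm20721* on the opposite strand. *Gnao1* shares 284 exonic bases with an antisense gene. *Gnao1* was 0.19 with the length offset (adjusted p = 0.00557, edgeR) and *Gnas* 0.17, no longer past the threshold (adjusted p = 0.0882, edgeR). *Gna11* did not pass with the GC offset (-0.08, adjusted p = 0.0613, edgeR). *Gnai3* and *Gnaz* did not pass, at 0.02 and 0.05. The sign of *Gnai3* turned and it passed with the GC offset (-0.10, adjusted p = 0.0226, edgeR), and it passed in the other direction with the replicate block and length offset (0.10, adjusted p = 0.0454, edgeR).

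Of 16 G beta and G gamma genes 10 were tested, 1 was higher and 4 lower, close to the 50.8% called over all genes, with a median log2 fold change of 0.01. *Gnb2* (-0.34, adjusted p = 2.76e-12, edgeR), *Gng5* (-0.34, adjusted p = 4.86e-05, edgeR), *Gnb3* (-0.18, adjusted p = 4.78e-05, edgeR) and *Gnb1* (-0.09, adjusted p = 0.00565, edgeR) were the lower ones. Parts of counts were listed for *Gng5* in 6 libraries, for *Gnb2* in 3 and for *Gnb1* and *Gnb3* in 2 each. *Gnb2* also shares 104 exonic bases with *Epo* on the same strand, so these values are uncertain. *Gnb3* did not pass with the length offset (-0.07, adjusted p = 0.121, edgeR) or with the replicate block and length offset (-0.07, adjusted p = 0.141, edgeR). The higher one was *Gng12* (0.53, adjusted p = 0.019, edgeR), which shares 125 exonic bases with a gene on the opposite strand and passed in 11 of 17 alternatives. It was not called by DESeq2, under glmTreat, with the GC offset, with no filter, without fresh replicate 1 or without RNA-Best replicate 3. *Gng2* and *Gng4* did not pass, at 0.04 and 0.04, but *Gng4* passed with the length offset (0.11, adjusted p = 0.0165, edgeR) and with the replicate block and length offset (0.12, adjusted p = 0.0173, edgeR).

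Of 6 other regulators of G alpha subunits 4 were tested, 0 were higher and 1 lower, where 26.0% of all genes were higher and 24.8% lower, with a median log2 fold change of 0.02. The lower one was *Ric8a*, a chaperone and exchange factor of G alpha subunits (-0.13, adjusted p = 0.0162, edgeR), and it was not called without RNA-Best replicate 1. It shares 390 and 418 exonic bases with 2 genes on the opposite strand, so its value is uncertain. *Gpsm1* and *Gpsm2* did not pass. The 4 enzymes of the N-degron pathway, which marks the Rgs4 and Rgs16 proteins for destruction, all passed, against 50.8% of all genes, with 3 higher and 1 lower and a median log2 fold change of 0.21. The ubiquitin ligases *Ubr1* (0.37, adjusted p = 7.2e-09, edgeR) and *Ubr2* (0.30, adjusted p = 1.07e-08, edgeR) and the arginyl transferase *Ate1* (0.13, adjusted p = 0.00763, edgeR) were higher. The cysteine dioxygenase *Ado* was lower (-0.13, adjusted p = 0.0417, edgeR), but it passed in 9 of 17 alternatives and not with limma's voom (adjusted p = 0.0551), with DESeq2 (adjusted p = 0.141) or after thinning (adjusted p = 0.0981, edgeR). With the length offset, where 38.3% of all genes passed, 1 of the 4 did, *Ubr1* at 0.14 (adjusted p = 0.00905, edgeR), which shares 308 exonic bases with a transcript on the opposite strand. Under the GC offset 2 of the 4 were called higher and 1 lower (23.9% and 24.1% of all genes). No filter also gave 2 higher and 1 lower (11.9% and 16.1% of all genes).

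The genes whose pattern over the 6 libraries was most like that of *Rgs3* were *Sec14l5*, *Sptb* and *Trappc10*, with Pearson correlations of log2(CPM + 1) of 0.9988, 0.9968 and 0.9962. The 6 points share the contrast between groups, and 779 genes had a correlation over 0.95, so this likeness is a description and has no test.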

How the data were processed

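PolyA RNA of 6 libraries of GnRH-treated LβT2 cells was sequenced. Per the submitters' processing notes the authors used STAR 2.5.1b, featureCounts 1.5.0-p1 and the mm10 build. They deposited estimated counts of reads for each gene without scaling by library size, and the sources used here name neither the option that divided reads nor the strand setting.

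Counts were rounded and tested in R 4.3.3 with the quasi-likelihood test of edgeR 4.0.16 (TMM scaling, filterByExpr with minimum count 10, Benjamini-Hochberg adjustment over all genes tested, threshold 0.05). limma 3.58.1 (voom, the method of the study) and DESeq2 1.42.0 were alternatives, beside other scalings, filters, offsets for exonic length and GC content (loess, span 0.5), thinning, a 1.2-fold threshold, the replicate block and single libraries left out. The study added a fold change cut-off to its voom calls, and none was used with voom here. CPM and RPKM used the column totals of the deposited counts. Depth was between 4909418 and 47438746 counts. A count of 0 was taken to allow up to 3 counts, a fixed limit below the upper end of its 95% interval (3.689 counts). Such limits cover counting error only.

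Positions and lengths came from GENCODE release 21 on GRCm38, which matched 46488 of 47069 genes by identifier (the authors used release 8). Promoters came from RefSeq and primer sequences from the supplement of the study. The genes and lists were chosen with earlier results of these data known. All 10 RGS genes are named, and of each other list at most 6, the 4 with the smallest adjusted p among those called and the 2 with the highest CPM among those not called. The 3 genes most like the RGS gene with the smallest adjusted p are named as well. Marker genes at 0 counts, *Rgs6*, *Ghrhr*, *Gng12* and overlapping genes were named outside this rule, after their values were seen.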

Additional observations from a re-analysis of the deposited data

How the results depend on the processing

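Over the alternatives, 113 of 135 log2 fold changes of the 8 tested RGS genes kept their direction and their side of the threshold. Another 13 kept their direction but no longer passed, 1 newly passed and 8 changed sign. Among those that changed sign, *Rgs3* also no longer passed, with the length offset and with the replicate block and length offset. The number called, 4 in the main test, was 2 with the length offset and 2 with the replicate block and length offset (38.3% and 38.2% of all genes called), 1 of 7 tested after thinning (40.8%) and 0 under glmTreat (1 at an unadjusted p under 0.05), which 1693 of all genes passed. Higher in RNA-Best were 0 with the length offset (1 at an unadjusted p under 0.05), 0 with the replicate block and length offset, 0 under glmTreat and 2 with the GC offset. Lower were 0 after thinning (2 at an unadjusted p under 0.05, edgeR) and 0 under glmTreat. Leaving out single libraries gave 3 to 4. With limma's voom 4 were called and with DESeq2 3, where 50.6% and 40.4% of all genes were.

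With the length offset *Rgs3* was -0.024, *Rgs12* -0.067 and *Rgs19* 0.11, while the replicate block with length offset gave -0.019, -0.088 and 0.117. *Rgs12* was -0.093 after thinning, and *Rgs19* 0.009 with the GC offset. Fresh and RNA-Best libraries of equal number showed no shared deviation (correlations of -0.0084, 0.0121 and -0.0077), and the design is not treated as paired. The replicate block called 7472 genes in all, against 7479 without it, and 4 RGS genes.

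Of the other RGS genes 1 passed, against 2, with DESeq2, no filter, the length offset, the GC offset, the replicate block with length offset, thinning and glmTreat, and 1 to 2 with single libraries left out. Under glmTreat, which 11.5% of all genes passed, 4 of 18 partners and relatives, 2 of 10 G alpha, 1 of 10 G beta or gamma and 1 of 4 N-degron genes passed. G alpha genes numbered 4 with the length offset and 4 with the GC offset, and N-degron genes 1 with the length offset and 2 with the replicate block and length offset. Other G alpha regulators numbered 0 with DESeq2 (1 at an unadjusted p under 0.05), 0 after thinning and 0 under glmTreat (0 at an unadjusted p under 0.05 in both), and 0 to 1 with single libraries left out, the 0 without RNA-Best replicate 1. With the GC offset *Ric8a* kept its sign but did not pass (-0.056, adjusted p = 0.305, edgeR), and *Gpsm1* passed at 0.098 (adjusted p = 0.0437, edgeR). Thinning and leaving out libraries lower the number of counts tested, and beyond that the cause was not tested. Depth limits *Rgs14* and *Rgs20*, which had 8 counts each in the shallowest library, and *Rgs16* and *Rgs17*, which were tested with no filter alone and not called. Per-length levels rose for the 8 genes with the median transcript length, by construction.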
